A study of Mus musculus with 10 samples.

Results

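The 7 genes described here belong to 3 small families of growth-associated genes: *Hmga1* and *Hmga2*, *Lin28a* and *Lin28b*, and *Igf2bp1*, *Igf2bp2* and *Igf2bp3*. They are 7 of the 20325 genes in the table of mouse embryonic stem cell (mESC) RNA-Seq values, and all 7 were among the 13201 genes that passed the filter on low values. *Hmga2* was selected on its measured levels in the H3.3 lines, where it was low with wild-type H3.3 and high with a mutant H3.3. The other 6 were taken as its relatives and as genes linked to it through the let-7 microRNAs. The question was whether the *Hmga2* pattern extended to them. The levels of *Hmga2* in the H3.3 lines are therefore given as a description with no test.

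PolyA RNA was sequenced from 5 mESC lines with 2 biological replicates each. DAXX is a chaperone of the histone variant H3.3. The *Daxx*-/- line and its rescue, *Daxx*-/-;WT, which carries a FLAG-tagged mouse DAXX transgene, are of strain 129/SvEv. The H3.3 KO line and its rescues, H3.3 KO;L126A-I130A and H3.3 KO;WT, are of strain 129 x C57BL/6J. The rescues carry FLAG-HA-tagged H3.3 transgenes, either wild-type or with a double substitution (spelled L126A-L130A in the labels) designed so that H3.3 still binds DAXX but is not stably placed in nucleosomes. Transgenes were delivered by lentivirus under an EF1 promoter with puromycin selection, a step that the methods give for transduced cells. All lines were grown without feeders in 2i + LIF medium, with CHIR99021 and PD0325901. Each rescue was compared with its own KO line, the mutant was compared with wild-type H3.3, and the H3.3 KO line was compared with *Daxx*-/-. The last pair also differs in strain and origin, which cannot be told apart from genotype.

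HMGA proteins are small chromatin proteins that bind the minor groove of AT-rich DNA through AT-hook motifs and are abundant in embryonic and many tumour cells. LIN28A and LIN28B are RNA-binding proteins that block the maturation of let-7, a microRNA family that rises as cells differentiate. let-7 in turn represses a set of fetal growth genes through sites in their 3′ UTRs, and *Hmga2*, both *Lin28* genes and *Igf2bp1* are known targets. IGF2BP proteins bind the mRNA of *Igf2* and of many other genes and affect its stability, transport and translation.

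Library totals lay between 15463625 and 21396585 expected counts. *H3f3a*, which encodes H3.3, ranged from 2.84 to 10.9 CPM (reads scaled to the size of each library) where H3.3 was knocked out and from 381 to 494 CPM where *Daxx* was. *H3f3b*, the other H3.3 gene, was at 509 and 720 CPM in H3.3 KO, and *Daxx* was at 82.5 and 72.8 CPM in *Daxx*-/- against 59.3 to 101 CPM in the H3.3 lines, so gene-level counts of these genes do not check the KO labels. *Daxx* rose to 206 ± 0.21 CPM (SD, n = 2) in *Daxx*-/-;WT (log2 fold change 1.41, edgeR adjusted p = 0.0212). Neither H3.3 gene rose with an H3.3 transgene. *H3f3b* was lower than in H3.3 KO with wild-type H3.3 (log2 -1.84, edgeR adjusted p = 0.0311). The mutant gave -0.79, which did not pass (edgeR adjusted p = 0.164). *H3f3b* was also lower in *Daxx*-/-;WT than in *Daxx*-/- (log2 -1.79, edgeR adjusted p = 0.0244). Of the 9 embryonic stem cell markers, 8 were analysed here. Their summed level was 3437 to 5390 CPM. Among them *Dppa3*, a marker of naive cells, was lower in *Daxx*-/-;WT than in *Daxx*-/- (6.79 and 11.2 CPM against 61.1 and 155 CPM, log2 -3.60, edgeR adjusted p = 0.0244), a call lost when either *Daxx*-/-;WT library or either H3.3 KO;WT library was left out (adjusted p = 0.256, 0.0813, 0.0626 and 0.0618). The 6 fibroblast markers, which would mark feeder cells, summed to 27.6 and 40.9 CPM in *Daxx*-/-, to 12.4 and 17.3 CPM in *Daxx*-/-;WT and to 4.25 to 11.1 CPM in the H3.3 lines. Most of this was *Thy1*, at 3.24 to 36.0 CPM, followed by *Col1a1* at 0.495 to 4.43 CPM, while *Col1a2*, *Col3a1*, *Acta2* and *Postn* reached at most 0.333 CPM. *Col1a1* was lower with DAXX by DESeq2 and limma but not by edgeR (log2 -2.51, edgeR adjusted p = 0.0588). The part of these markers in the members' values was not tested. Bulk RNA cannot separate fewer cells that express a gene from less RNA per cell.

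The let-7 sequences are shown because the seed, bases 2 to 8 of the mature microRNA, is what the members' 3′ UTRs can match. Mature let-7 RNA is not polyadenylated and was not measured. Of 13 let-7 family entries in RefSeq (GRCm38.p6), 12 hold the seed GAGGUAG, and let-7j differs from them in its last seed base. The family is spread over several chromosomes. let-7a-5p of *Mirlet7a-1* lies at chr13:48538239-48538260 (minus strand), let-7i-5p at chr10:122985698-122985719 (minus strand) and let-7j at chr3:140028281-140028304 (plus strand). Capitals mark the seed.
let-7a-5p: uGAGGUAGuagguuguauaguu
let-7b-5p: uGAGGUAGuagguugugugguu
let-7g-5p: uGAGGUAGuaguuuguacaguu
let-7i-5p: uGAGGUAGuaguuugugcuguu
miR-98-5p: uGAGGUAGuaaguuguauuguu
let-7j: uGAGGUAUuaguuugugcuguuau

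Matches to the seed were searched on the sense strand of each gene's 3′ UTR (GENCODE M21 annotation, GRCm38), as CTACCTCA (8mer), CTACCTC (7mer-m8) and TACCTCA (7mer-A1), with overlapping letters counted once as the longest form. All 7 members held at least 1 match, whereas 15.5% of the 11768 tested genes with an annotated 3′ UTR did. The share was 25.4% among the genes whose 3′ UTR is at least 1000 bases long. *Hmga2* held 7 matches in 2977 bases, or 2.35 per kb against 0.127 per kb over all genes, and only 4 of the tested genes had 7 or more. *Igf2bp1* and *Lin28b* held 5 matches each, *Lin28a* and *Igf2bp2* held 2 each, and *Hmga1* and *Igf2bp3* held 1 each. An 8mer was present in 6 of the 7 members, all but *Hmga1*, and in 3.31% of all genes. let-7 targets were among the reasons for choosing these genes, so the matches describe them and are not independent of the choice.

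All 7 sites of *Hmga2* are shown because it has more than the other members, and 1 site of each other member is shown for comparison. The *Hmga2* sites lie between 21 and 2574 bases after the stop codon, on the minus strand of chromosome 10, from chr10:120364224-120364245 (site 1) to chr10:120361672-120361693 (site 7). All 7 are in a single exon. Capitals mark the match and sequences read 5′ to 3′ along the mRNA.
Hmga2 site 1: ccgacattcaatttCTACCTCA
Hmga2 site 2: gaccgcagtaccactTACCTCA
Hmga2 site 3: ccccactcctcaataCTACCTC
Hmga2 site 4: aagtctccaagtttgTACCTCA
Hmga2 site 5: ctgatttgcaaggaaCTACCTC
Hmga2 site 6: aatcaaaacacactaCTACCTC
Hmga2 site 7: tcttaagtcccagtaTACCTCA
Hmga1 (chr17:27563277-27563298, plus strand): tcctctgttcacaaaCTACCTC
Lin28a (chr4:134005189-134005210, minus strand): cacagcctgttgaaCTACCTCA
Lin28b (chr10:45381022-45381043, minus strand): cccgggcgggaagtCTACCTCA
Igf2bp1 (chr11:95961778-95961799, minus strand): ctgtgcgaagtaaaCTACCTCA
Igf2bp2 (chr16:22059473-22059494, minus strand): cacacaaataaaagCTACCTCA
Igf2bp3 (chr6:49086787-49086808, minus strand): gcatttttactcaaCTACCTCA

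**Figure D1:**
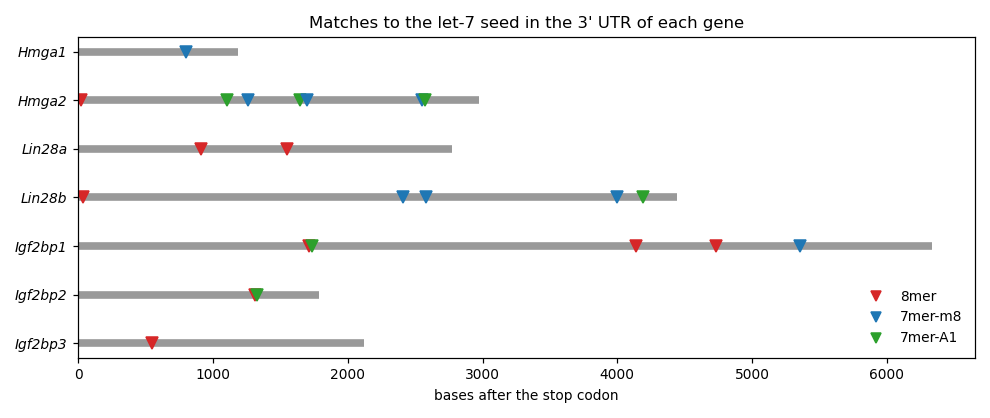
Matches to the let-7 seed along the 3′ UTR of each member. The x axis is the distance in bases after the stop codon, each grey bar is the 3′ UTR, and triangles mark matches by class; *Hmga2* has 7 matches, and in *Hmga2* and *Lin28b* the first lies within 36 bases of the stop codon.

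*Hmga2* (chr10:120361275-120476469, minus strand) encodes the fetal HMGA protein. It was at 27.2 and 45.7 CPM in H3.3 KO, at 4.51 and 7.31 CPM in H3.3 KO;WT and at 37.6 and 30.9 CPM in H3.3 KO;L126A-I130A, replicates 1 and 2 in each case. The lowest of these values rested on 71 expected counts. Both libraries with wild-type H3.3 were below every other library, and the mutant and KO lines overlapped. The log2 fold change was -2.62 (SE 0.33) for wild-type H3.3 against KO, a 6.15-fold lower level, and -0.09 (SE 0.30) for the mutant against KO. Between the mutant and wild-type H3.3 it was 2.53 (SE 0.33). These values chose the gene and carry no test.

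The *Daxx* lines were not used to choose *Hmga2*. There it was at 46.1 and 34.1 CPM in *Daxx*-/- and at 32.5 and 42.1 CPM in *Daxx*-/-;WT. The rescue lay within the range of its KO line at one replicate and below it at the other, and the log2 difference of -0.10 (SE 0.30, edgeR adjusted p = 0.859) had a 95% interval from -0.79 to 0.58. H3.3 KO and *Daxx*-/- also overlapped, with a log2 difference of -0.14 (SE 0.30, edgeR adjusted p = 0.773) and an interval from -0.82 to 0.55. A 2-fold change in either direction lies outside both intervals. The means of the 4 lines other than H3.3 KO;WT were between 34.2 and 40.1 CPM.

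**Figure D2:**
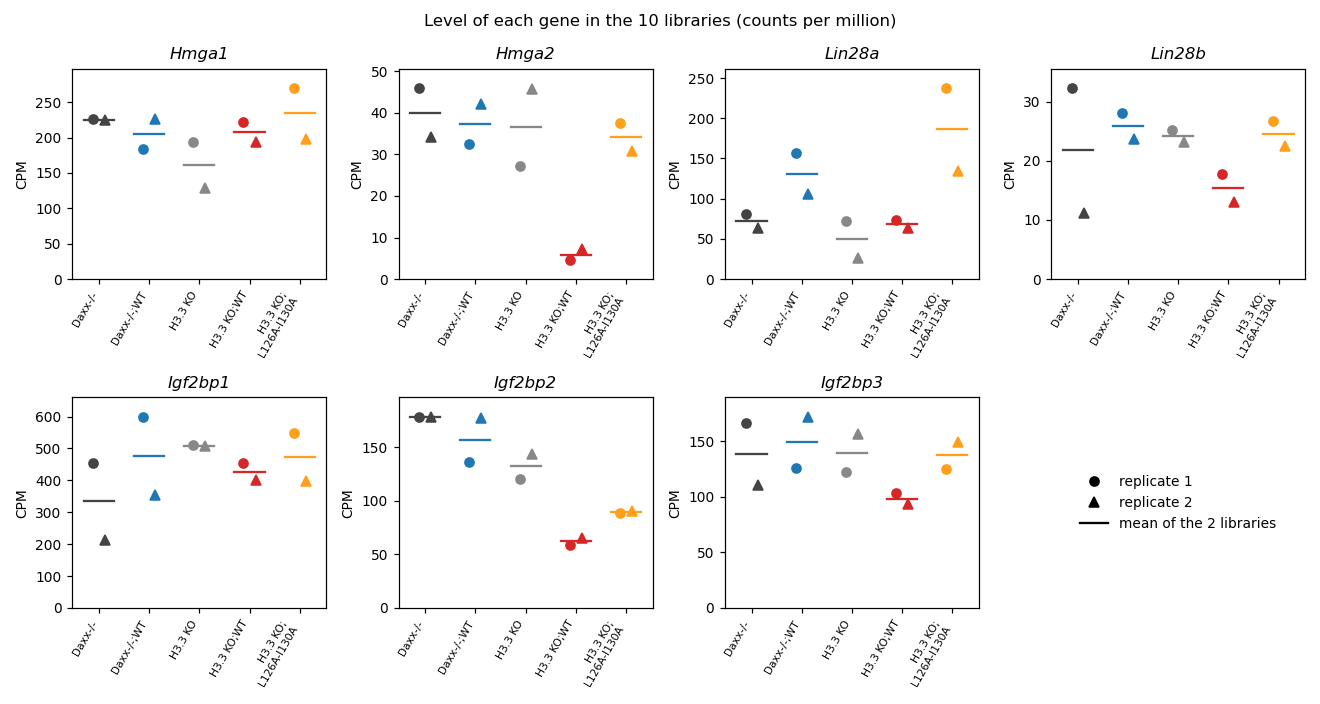
Level of each member in the 10 libraries, in CPM on a linear axis from 0, with a circle for replicate 1, a triangle for replicate 2 and a line at the mean of each mESC line. *Hmga2* is at 4.51 and 7.31 CPM in H3.3 KO;WT and at 27.2 to 46.1 CPM elsewhere, *Igf2bp2* is also lowest in H3.3 KO;WT, and *Lin28a* is highest in H3.3 KO;L126A-I130A.

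*Hmga1* (chr17:27556497-27563674, plus strand), the broadly expressed HMGA gene, did not share the pattern. It was at 194 and 129 CPM in H3.3 KO, at 223 and 194 CPM in H3.3 KO;WT and at 270 and 199 CPM in H3.3 KO;L126A-I130A. The libraries with wild-type H3.3 overlapped those of both other lines. The log2 fold change against KO was 0.36 (SE 0.22, edgeR adjusted p = 0.536) with wild-type H3.3 and 0.54 (SE 0.22, edgeR adjusted p = 0.265) with the mutant, and the mutant and wild-type H3.3 differed by 0.17 (SE 0.22, edgeR adjusted p = 0.853). The 95% interval for wild-type H3.3 against KO was -0.14 to 0.87, and a 2-fold decrease lies outside it. In the *Daxx* lines it was at 226 and 224 CPM without DAXX and at 183 and 226 CPM with it. That difference did not pass the test (log2 -0.14, SE 0.22, edgeR adjusted p = 0.741). RSEM divides reads that match more than 1 place among them, so the counts of *Hmga1* are estimates.

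*Lin28a* (chr4:134003330-134018841, minus strand), which encodes the LIN28 protein that recruits uridylyl transferases to the let-7 precursor, had its highest levels with the mutant H3.3. It was at 71.9 and 26.6 CPM in H3.3 KO, at 73.8 and 63.9 CPM in H3.3 KO;WT and at 238 and 134 CPM in H3.3 KO;L126A-I130A. Both mutant libraries were above the other 4 of the H3.3 lines, while wild-type H3.3 and KO overlapped. The mutant against KO gave a log2 fold change of 1.92 (SE 0.44), 3.77-fold higher, which did not pass the threshold (edgeR unadjusted p = 0.00187, adjusted p = 0.0771). Over 7 other settings of the fit this change was between 1.88 and 2.00 with adjusted p-values from 3.2e-04 to 0.117, and it passed in 3 of them, including DESeq2. Against wild-type H3.3 the mutant was higher by 1.43 (SE 0.44, edgeR adjusted p = 0.210), a change that passed in DESeq2 (adjusted p = 0.0204) and with replicates blocked (adjusted p = 0.0311). Leaving out mutant replicate 1 gave 1.45 (adjusted p = 0.366) against KO, and leaving out H3.3 KO replicate 2 gave 1.37 (adjusted p = 0.340).

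The 4 libraries highest in *Lin28a*, those of the mutant line and of *Daxx*-/-;WT, were also highest in the summed markers of the formative or primed epiblast, the state that follows naive pluripotency. The 6 markers together reached 318 and 128 CPM in the mutant line against 83.4 to 99.7 CPM in the other H3.3 libraries. Most of this sum was *Dnmt3b*, a de novo DNA methyltransferase, at 279 and 98.7 CPM with the mutant and at 62.3 and 58.8 CPM in H3.3 KO (log2 1.64, SE 0.48, edgeR adjusted p = 0.136), called by DESeq2 and not by limma. Of the other markers *Foxd3* (31.1 and 23.9 CPM against 17.0 and 33.3 CPM), *Otx2* (1.42 and 1.04 against 1.30 and 1.12 CPM), *Pou3f1* (2.49 and 2.90 against 2.77 and 5.52 CPM) and *Lef1* (2.02 and 0.766 against 2.43 and 0.559 CPM) overlapped between the mutant and KO lines. The median log2 change of the 5 tested markers was 0.01, beside 0.03 over all genes. *Eomes*, a trophoblast marker, was at 17.8 and 13.9 CPM with the mutant and at 7.42 and 8.19 CPM in H3.3 KO (log2 1.02, edgeR adjusted p = 0.105) and was called by DESeq2 alone. *Fgf5*, a defining marker of the primed state, was at 1.42 and 0.219 CPM with the mutant and at or below 0.566 CPM in every other line. It did not pass the filter on low values. The part of these markers in the *Lin28a* levels was not tested. In the *Daxx* lines *Lin28a* was at 81.1 and 64.1 CPM in *Daxx*-/- and at 157 and 105 CPM in *Daxx*-/-;WT. These did not overlap, but the log2 fold change of 0.85 (SE 0.43) did not pass the test (edgeR adjusted p = 0.282). The same marker sum was 62.0 to 113 CPM in *Daxx*-/- and 117 to 169 CPM in its rescue. Most of it was again *Dnmt3b*, which overlapped, at 86.4 and 43.9 CPM in *Daxx*-/- and at 144 and 83.1 CPM in its rescue (log2 0.81, edgeR adjusted p = 0.345). *Otx2* (log2 0.76) and *Foxd3* (log2 0.40) were higher with DAXX, and *Pou3f1* (log2 -1.22) and *Lef1* (log2 -0.33) were lower. Of the 5 tested markers 0 were called there.

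*Lin28b* (chr10:45376620-45486395, minus strand), the paralogue of *Lin28a*, had the lowest mean in the line with wild-type H3.3. It was at 25.1 and 23.3 CPM in H3.3 KO, at 17.8 and 13.1 CPM in H3.3 KO;WT and at 26.8 and 22.5 CPM in the mutant line. Both wild-type libraries were below the other 4 libraries of the H3.3 lines. The log2 fold changes of -0.65 (SE 0.41, edgeR adjusted p = 0.551) against KO and 0.67 (SE 0.41, edgeR adjusted p = 0.590) for the mutant against wild-type H3.3 did not pass. These errors came from the fit on all 10 libraries, including the *Daxx*-/- pair described below. Fitted alone, wild-type H3.3 against KO gave -0.66 (SE 0.19, edgeR adjusted p = 0.0750). That fit called 330 of all genes, against 33 in the main fit, so its adjusted p-values are lower in general. The mutant and KO lines differed by 0.02 (SE 0.41).

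In *Daxx*-/-, *Lin28b* was at 32.4 CPM in replicate 1 and 11.1 CPM in replicate 2, which differ 2.91-fold and hold the highest and the lowest value of all 10 libraries. In the other lines too *Lin28b* was higher in replicate 1, by 1.08-fold to 1.37-fold. With DAXX it was at 28.0 and 23.7 CPM, between the 2 KO libraries (log2 0.25, SE 0.41, edgeR adjusted p = 0.746). The direction of this comparison rests on 1 library. Without *Daxx*-/- replicate 1 the log2 fold change was 1.21 (adjusted p = 0.0291), and without replicate 2 it was -0.33.

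*Igf2bp2* (chr16:22059009-22163299, minus strand) was the only member to pass the test (*Hmga2* had none among the H3.3 lines). It encodes the IGF2BP protein that is also expressed in adult tissues, and *Hmga2* is known to promote its transcription. It was at 120 and 144 CPM in H3.3 KO, at 58.7 and 65.7 CPM in H3.3 KO;WT and at 89.2 and 90.8 CPM in H3.3 KO;L126A-I130A. The 3 lines did not overlap, with the mutant between the others. With wild-type H3.3 it fell by 1.09 on the log2 scale (SE 0.16), or 2.13-fold, against KO (edgeR adjusted p = 0.0411). The log2 fold change of -0.56 (SE 0.16) for the mutant against KO did not pass (edgeR adjusted p = 0.130), and neither did the difference of 0.53 (SE 0.16) between the mutant and wild-type H3.3 (edgeR adjusted p = 0.206). The 95% interval for the mutant against KO, which is not adjusted for the number of genes, was -0.92 to -0.20.

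The fall of *Igf2bp2* passed in all 7 other settings, with log2 values from -1.11 to -1.07. It no longer passed when any 1 of the 6 H3.3 libraries was left out, with adjusted p-values of 0.134 and 0.335 without H3.3 KO replicates 1 and 2, 0.5002 and 0.346 without H3.3 KO;WT replicates 1 and 2, and 0.0717 and 0.0722 without mutant replicates 1 and 2. Over all 10 such fits the log2 value stayed between -1.22 and -0.95. In the *Daxx* lines *Igf2bp2* was at 179 and 179 CPM without DAXX and at 137 and 177 CPM with it (log2 -0.19, SE 0.16, edgeR adjusted p = 0.507). The log2 difference of -0.43 between H3.3 KO and *Daxx*-/- did not pass (SE 0.16, edgeR adjusted p = 0.0776).

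*Igf2bp3* (chr6:49085223-49214957, minus strand), an oncofetal family member, was also lowest with wild-type H3.3, by a smaller margin. It was at 122 and 157 CPM in H3.3 KO, at 104 and 93.5 CPM in H3.3 KO;WT and at 125 and 150 CPM in H3.3 KO;L126A-I130A. Both wild-type libraries were below all 8 others. The log2 fold change was -0.50 (SE 0.24, edgeR adjusted p = 0.400) against KO and 0.48 (SE 0.24, edgeR adjusted p = 0.462) for the mutant against wild-type H3.3, and neither passed. Fitted alone, where more of all genes were called than in the main fit, wild-type H3.3 against KO gave -0.51 (SE 0.14, edgeR adjusted p = 0.0676). The mutant differed from KO by -0.02 (SE 0.23). In the *Daxx* lines it was at 167 and 110 CPM without DAXX and 125.8 and 172 CPM with it, so these overlapped.

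*Igf2bp1* (chr11:95957163-96005940, minus strand), the family member with the most let-7 matches, differed little among the H3.3 lines. It was at 511 and 508 CPM in H3.3 KO, at 455 and 400 CPM in H3.3 KO;WT and at 548 and 397 CPM in the mutant line. Wild-type H3.3 was below KO but overlapped the mutant, and the log2 fold change of -0.25 (SE 0.35) against KO did not pass (edgeR adjusted p = 0.810). Fitted alone, where more of all genes were called than in the main fit, that comparison gave -0.27 (SE 0.11, edgeR adjusted p = 0.182). The mutant differed from KO by -0.11 (SE 0.35) and from wild-type H3.3 by 0.14 (SE 0.35).

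The replicates of *Igf2bp1* in *Daxx*-/- stood apart by 2.12-fold, at 455 and 214 CPM, and those of *Daxx*-/-;WT were at 600 and 354 CPM. Replicate 1 was the higher in every line, from 1.01-fold in H3.3 KO upward. With DAXX the log2 fold change was 0.51 (SE 0.35, edgeR adjusted p = 0.414). Without *Daxx*-/- replicate 1 it was 1.15 and passed (adjusted p = 0.0445), and without replicate 2 it was 0.06. The same library decided the comparison of H3.3 KO with *Daxx*-/-, which gave 0.60 (SE 0.35, edgeR adjusted p = 0.234) with all libraries and 1.25 (adjusted p = 0.0204) without it. For *Lin28b* these values were 0.15 (SE 0.41, edgeR adjusted p = 0.811) and 1.12 (adjusted p = 0.0171).

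**Figure D3:**
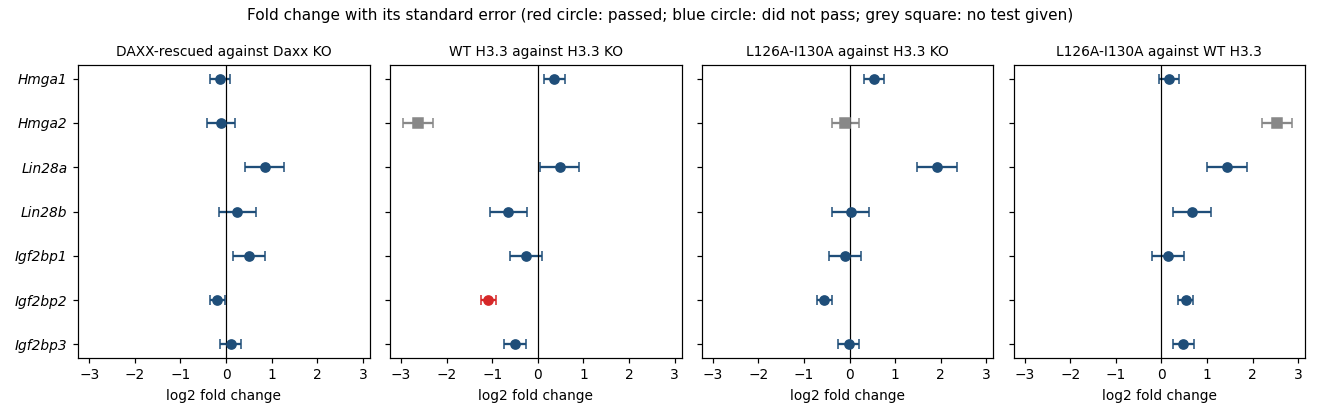
Log2 fold change of each member with its standard error in 4 comparisons, from edgeR. Only *Igf2bp2* with wild-type H3.3 passed (red circle, -1.09); the grey squares of *Hmga2* carry no test, and the other members lie between -0.65 and 1.92.

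The counts of members were read against all genes tested, where a call is an edgeR adjusted p-value under 0.05 with at least a 2-fold change. With wild-type H3.3 against KO, 1 of the 6 members other than *Hmga2* was called, lower, where 0.25% of all genes were called and 0.212% were called lower. DESeq2 and limma also called 1 of 6 there, *Igf2bp2*, and 1.61% and 0.417% of all genes, and 1 of 6 members and 13.3% of all genes had an unadjusted p under 0.05. With DAXX 0 of 7 members were called by edgeR, where 1.08% of all genes were. There 0 of 7 had an unadjusted p under 0.05 (21.8% of all genes), and DESeq2 (4.02% of all genes) and limma (1.82%) called 0. With the mutant against KO 0 of 6 were called by edgeR, where 0.788% of all genes were, although 3 had an unadjusted p under 0.05 (*Hmga1*, *Lin28a* and *Igf2bp2*, beside 16.9% of all genes). DESeq2 called 1 member and 3.36% of all genes in that comparison, and limma 0 members and 1.31%. Between the mutant and wild-type H3.3 0 of 6 were called by edgeR, where 0.515% of all genes were, with 2 at an unadjusted p under 0.05 (*Lin28a* and *Igf2bp2*, beside 12.3% of all genes), 1 called by DESeq2 (2.45% of all genes) and 0 by limma (0.727%). In H3.3 KO against *Daxx*-/- 0 of 7 were called by edgeR, where 11.7% of all genes were, with 1 at an unadjusted p under 0.05 (*Igf2bp2*, beside 38.0% of all genes) and 0 called by DESeq2 (13.0% of all genes) or limma (11.0%).

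A looser count is of members whose libraries did not overlap between the 2 lines compared, which with 2 libraries a line is common. It was 4 of the 6 members other than *Hmga2* with wild-type H3.3 against KO (*Lin28b*, *Igf2bp1*, *Igf2bp2* and *Igf2bp3*, all lower), where 56.0% of all genes did not overlap. It was 3 of 6 with the mutant against KO (50.1% of all genes) and 4 of 6 between the mutant and wild-type H3.3 (45.3% of all genes). It was 2 of 7 with DAXX (46.5% of all genes) and 3 of 7 between the KO lines (60.2% of all genes). These shares lie near the background and are no result about the members. The median log2 fold change over the 6 members other than *Hmga2* was -0.38 with wild-type H3.3 against KO and 0.51 for the mutant against wild-type H3.3, beside 0.02 and 0.00 over all genes. It was 0.18 with DAXX, 0.00 with the mutant against KO and -0.21 between the KO lines, beside -0.02, 0.03 and -0.02 over all genes. The 3 comparisons among the H3.3 lines share libraries and are not independent of each other.

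Ordered by line means, H3.3 KO;WT came last for *Hmga2*, *Lin28b*, *Igf2bp2* and *Igf2bp3*, and H3.3 KO came last for *Hmga1* and *Lin28a*. *Daxx*-/- came last for *Igf2bp1*. In *Hmga2* and *Igf2bp3* the 4 upper lines overlapped each with its neighbour and H3.3 KO;WT stood apart. In *Lin28b* and *Igf2bp1* all neighbouring lines overlapped. In *Igf2bp2* the *Daxx*-/- line came first, followed by its rescue, then by H3.3 KO, the mutant and lastly wild-type H3.3, and only *Daxx*-/-;WT overlapped its lower neighbour. In *Lin28a* the mutant line and *Daxx*-/-;WT led and overlapped each other, and *Daxx*-/-;WT stood above the 3 lines that followed.

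Levels of different genes were compared as CPM per kb of the annotated transcript. On this scale *Hmga1* had the highest line means, 96.2 to 140 CPM per kb, and *Lin28b* (2.86 to 4.79) and *Hmga2* (1.59 to 10.8) the lowest. *Igf2bp1* was at 40.0 to 60.8, *Igf2bp2* at 16.0 to 45.8, *Igf2bp3* at 22.7 to 34.3 and *Lin28a* at 14.0 to 53.1 CPM per kb. The range between the lowest and highest library was widest for *Hmga2* (10.2-fold) and *Lin28a* (8.96-fold), and it was 1.84-fold to 3.05-fold for the other 5.

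Likeness to *Hmga2* was described by the Pearson correlation of log2(CPM + 1) over the 10 libraries, among 13200 other genes with a median r of 0.01. *Igf2bp2* had r = 0.83, the 47th highest of all genes, and *Igf2bp3* had r = 0.77, the 97th highest. *Lin28b* followed with r = 0.52 (rank 890). *Lin28a* (r = 0.13), *Igf2bp1* (r = -0.0002) and *Hmga1* (r = -0.10) were near the middle of the distribution. Among the 6 H3.3 libraries alone, r was 0.87 for *Igf2bp2*, 0.86 for *Igf2bp3* and 0.82 for *Lin28b*, and 0.09 for *Lin28a*. These correlations share the libraries in which *Hmga2* was selected and carry no p.

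**Figure D4:**
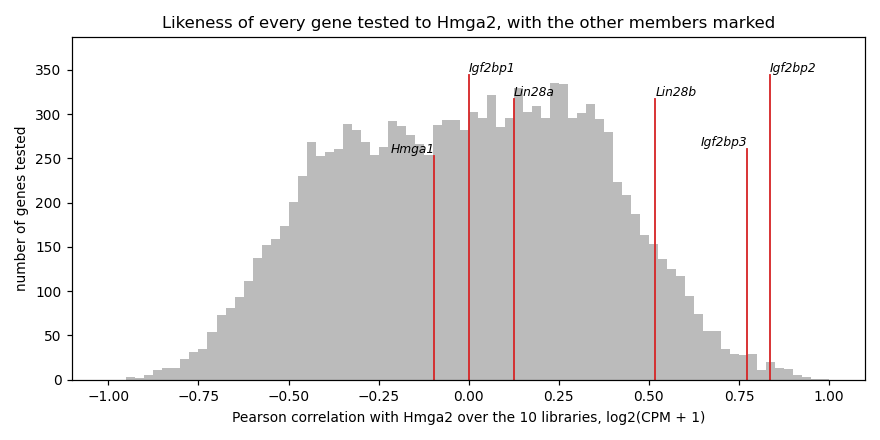
Distribution over the genes tested of the Pearson correlation with *Hmga2* across the 10 libraries (x axis, no unit; y axis, number of genes per bin of the histogram), with a red line at each other member. *Igf2bp2* (0.83) and *Igf2bp3* (0.77) lie in the upper tail, while *Hmga1* (-0.10), *Igf2bp1* and *Lin28a* (0.13) lie near the middle.

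The 6 genes most like *Hmga2*, among 3417 genes whose log2 level varied with an SD of at least 0.5, were *Tmem64* (r = 0.96), *Oas1a* (0.92), *Dtna* (0.90), *Prpf40b* (0.89), *Necab1* (0.89) and *Ttll4* (0.89). They were chosen for this likeness, so their levels are a description. *Tmem64*, which encodes a membrane protein, was at 74.7 and 116 CPM in H3.3 KO, at 27.2 and 24.7 CPM in H3.3 KO;WT and at 147 and 100.3 CPM in the mutant line. *Prpf40b*, which encodes a splicing factor, was at 38.4 and 36.7 CPM, at 14.3 and 14.4 CPM and at 26.4 and 31.9 CPM in the same order. In all 6 genes both H3.3 KO;WT libraries were below the 8 others. *Dtna* and *Necab1* did not exceed 5.95 CPM in any library.

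Of the other genes of the let-7 pathway, those that process the microRNA did not pass among the H3.3 lines. All 17 genes of this list were tested, among them *Drosha* (listed as *Rnasen*), *Dicer1* and the uridylyl transferases *Zcchc11* and *Zcchc6*. Called by edgeR were 0 of 17 with DAXX, with wild-type H3.3, with the mutant and between the mutant and wild-type H3.3. At an unadjusted p under 0.05 there were 4, 1, 2 and 0 respectively, beside 21.8%, 13.3%, 16.9% and 12.3% of all genes. DESeq2 called *Msi1* with DAXX and otherwise 0, and limma called 0. The median log2 change with wild-type H3.3 was 0.02, the same as over all genes to 2 decimals. *Ddx17*, a helicase of the microprocessor, had the largest change there, at 573 and 544 CPM against 421 and 414 CPM (log2 0.42, edgeR adjusted p = 0.348). Between the KO lines *Eif2c2*, which encodes Argonaute 2, was lower in H3.3 KO (164 and 118 CPM against 398 and 367 CPM, log2 -1.44, edgeR adjusted p = 0.00129) and *Khsrp* was higher (log2 1.16, edgeR adjusted p = 0.00191). These were 2 of 17 genes called, beside 11.7% of all genes, so the count is near the background.

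The other known let-7 targets were counted in the same way. Of 26 listed, 25 were tested, and edgeR called 0 with DAXX, with wild-type H3.3, with the mutant and between the mutant and wild-type H3.3. Those at an unadjusted p under 0.05 numbered 7, 6, 5 and 5 of 25, beside 21.8%, 13.3%, 16.9% and 12.3% of all genes. DESeq2 called *Ccnd1* and *E2f2* with the mutant against KO and limma called *E2f2*, all higher, with 0 by both tools in the other 3 comparisons. With wild-type H3.3 the median log2 change was -0.05, beside 0.02 over all genes. *Fign*, which encodes a microtubule-severing enzyme, had the largest change, from 0.963 and 1.06 CPM in H3.3 KO to 0.0635 and 0.290 CPM (log2 -2.44, SE 0.80, edgeR adjusted p = 0.250), at levels where few counts were seen. *Ccnd1*, the cyclin of the G1 phase, was at 82.2 and 36.8 CPM with the mutant and at 25.8 and 21.5 CPM in H3.3 KO (log2 1.33, SE 0.39, edgeR adjusted p = 0.134). Between the KO lines *Ccnd1* (log2 -2.46, edgeR adjusted p = 0.00393), *Cdk6* (log2 -1.73, edgeR adjusted p = 0.00852) and *Arid3b* (log2 -1.01, edgeR adjusted p = 0.00418) were lower in H3.3 KO. That is 3 of 25 called, beside 11.7% of all genes, a count near the background.

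Genes were also taken by 3′ UTR sequence alone, a split added after the values had been seen. The 384 tested genes other than the members with an 8mer match had a median log2 change of 0.02 with wild-type H3.3 against KO and 0.01 for the mutant against wild-type H3.3. The 9940 genes with no match had medians of 0.02 and 0.00. Of the 384, edgeR called 0 higher and 1 lower with wild-type H3.3, or 0.26%, beside 0.272% of the genes with no match. The 332 genes with 2 or more matches had medians of -0.02 and -0.005 in these comparisons. Of them 0.301% were called with wild-type H3.3. Between the mutant and wild-type H3.3 2 were called higher and 1 lower, or 0.904%, beside 0.523% of the genes with no match and 0 of the 384.

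Among the other high-mobility-group genes, *Hmgn5*, which encodes a nucleosome-binding protein, had the same order of the H3.3 lines as *Hmga2* in its levels. It was at 73.4 and 88.1 CPM in H3.3 KO, at 39.9 and 30.0 CPM in H3.3 KO;WT and at 85.7 and 71.7 CPM in the mutant line. Both wild-type libraries were below the other 4. *Hmgn5* fell by 1.21 on the log2 scale (SE 0.19, edgeR adjusted p = 0.0476) with wild-type H3.3 and was higher by 1.17 (SE 0.19, edgeR adjusted p = 0.0426) in the mutant than in wild-type H3.3. Each call held in the 2 fits that left out a *Daxx*-/- library and was lost in the 8 that left out a library of any other line. Over those fits the adjusted p-values ran from 0.0303 to 0.493 for the first comparison and from 0.0305 to 0.371 for the second. The second call was also lost when that comparison was fitted alone (adjusted p = 0.0864), and the first held in all 7 other settings. Unlike *Hmga2*, it was low in the *Daxx* lines, at 34.0 and 29.8 CPM in *Daxx*-/-, and rose by 1.34 (SE 0.19, edgeR adjusted p = 0.00236) from *Daxx*-/- to H3.3 KO. Its correlation with *Hmga2* over the 10 libraries was 0.30 (rank 2961). *Hmgn5* was the only 1 of the 9 tested genes of this list that edgeR called in any comparison, and DESeq2 also called *Hmgn3*, lower with the mutant against KO. Over all genes edgeR called 0.25% with wild-type H3.3, 0.515% between the mutant and wild-type H3.3 and 11.7% between the KO lines.

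In the insulin-like growth factor list, 9 of 13 genes were tested, and edgeR called 0 with DAXX, with wild-type H3.3, with the mutant and between the mutant and wild-type H3.3. Those at an unadjusted p under 0.05 numbered 1, 1, 2 and 1 of 9, beside the same shares of all genes. DESeq2 called *Igfbp3* with the mutant against KO and *Igfbp7* between the mutant and wild-type H3.3, both lower, limma called *Igfbp3* alone, and both called 0 elsewhere among these. *Igfbp3*, a binding protein of the growth factors, was at 11.9 and 9.98 CPM with wild-type H3.3 and at 21.2 and 20.5 CPM in H3.3 KO (log2 -0.93, SE 0.32, edgeR adjusted p = 0.265). Between the KO lines *Igfbp3* was higher in H3.3 KO (log2 1.12, edgeR adjusted p = 0.0336) and *Igfbp5* lower (log2 -2.24, edgeR adjusted p = 0.0498), or 2 of 9 called, beside 11.7% of all genes.

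Among the lists of cell type markers edgeR called *Dppa3* with DAXX, given above, and 0 among the H3.3 lines. Over all genes 1.08% were called with DAXX and 0.25% to 0.788% among the H3.3 lines. Between the KO lines 4 marker genes were called by edgeR: *Thy1* (log2 -2.11, adjusted p = 0.00840) and *Otx2* (log2 -2.99, adjusted p = 0.00347) were lower in H3.3 KO, and *Tbx3* (log2 1.15, adjusted p = 0.00485) and *Foxd3* (log2 1.68, adjusted p = 0.0245) were higher. They were 1 of 8 tested embryonic stem cell markers, 2 of 5 formative or primed epiblast markers and 1 of 2 fibroblast markers. None of the tested primitive endoderm, trophoblast, neural or mesoderm markers was called. Over all genes 11.7% were called between these lines. Without H3.3 KO replicate 2 the calls of *Thy1* (adjusted p = 0.0737), *Tbx3* (log2 0.83) and *Foxd3* (adjusted p = 0.166) were lost, and that of *Foxd3* was also lost without *Daxx*-/- replicate 2 (adjusted p = 0.0675).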

How the data were processed

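PolyA RNA libraries of 5 mESC lines, 2 per line, were grouped by the genotype in their labels. The authors aligned reads with Bowtie and estimated expression with RSEM. The labels name mm9, and versions are not given in the sources used here. The deposited values, although named TPM, are RSEM expected counts per gene with no scaling, of which 61.4% to 67.6% per library are whole numbers. They were rounded and fitted with edgeR (version 4.0.16, R version 4.3.3, quasi-likelihood test) on all 10 libraries, with median-of-ratios factors and line as the only term. A gene had to reach 1 CPM in 2 or more libraries, and p-values were adjusted by Benjamini-Hochberg over the 13201 genes tested. A gene was called at an adjusted p under 0.05 and a 2-fold change. CPM used the same factors. The standard error is the log2 fold change divided by the square root of F, and 95% intervals use the fit's degrees of freedom. The fit was also run on simulated counts that had the same spread for all genes and no shared replicate effect. That run does not show how the fit performs with the spread of these data.

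DESeq2 (version 1.42.0), limma (version 3.58.1) on log2(CPM + 1), TMM factors, other filters, each comparison alone, a replicate block and leaving out each library were tried as alternatives. The study used EBSeq, which was not used here. Gene positions and 3′ UTRs are from GENCODE M21 (GRCm38) by gene symbol, with 1 transcript per gene, and let-7 sequences are from RefSeq (GRCm38.p6). *H19*, *Tfcp2l1* and *Tfap2c* were not analysed here. 1 further item is not reported here. The members and lists were chosen with earlier results of these data known. Named are the 7 members, list genes that were called, for some comparisons the uncalled gene of a list with the largest change, and the 6 genes most correlated with *Hmga2*. *Rnasen*, *Dicer1*, *Zcchc11*, *Zcchc6*, uncalled marker genes and the genes called by DESeq2 or limma were named outside this rule, after their values were seen. Library totals limit precision by counting error only. Each edgeR p-value rests on the spread between the 2 biological replicates of every line, shared over all 5 lines and across genes. Libraries outside a comparison therefore affect its p-values.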

Additional observations from a re-analysis of the deposited data

How the results depend on the processing

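Over TMM factors, other filters, DESeq2, limma, the replicate block and each comparison alone, the calls of members were the same apart from *Lin28a*, for which 1 member was called with the mutant against KO under no filter, DESeq2 and the block, and 1 between the mutant and wild-type H3.3 under DESeq2 and the block. The replicate numbers are not shown to pair the samples in all lines. Differences between replicates correlated between lines at -0.04 to 0.57, with 3 of 10 pairs of lines at or under 0.1. Each of those 3 pairs includes H3.3 KO, and pairs among the other lines lay at 0.27 to 0.57. The main fit has no term for replicate. *Lin28a*, *Lin28b* and *Igf2bp1* were higher in replicate 1 than in replicate 2 in all 5 lines. With the replicate block *Lin28a* changed by 1.97 (edgeR adjusted p = 0.00789) with the mutant against KO. Between the mutant and wild-type H3.3 it changed by 1.37 (edgeR adjusted p = 0.0311). All genes called with the block numbered 621 (DAXX), 105 (wild-type H3.3), 461 (mutant), 234 (mutant against wild-type) and 1895 (KO lines), against 143, 33, 104, 68 and 1543 without it. In the same order, no filter gave 233, 53, 203, 125 and 1614, DESeq2 531, 213, 444, 323 and 1712, limma 240, 55, 173, 96 and 1457, and each comparison alone 1, 330, 29, 18 and 859. A mean of at least 5 CPM gave 38 for the mutant against wild-type. Leaving out 1 library gave 1 to 1074, 2 to 61, 2 to 231, 0 to 102 and 706 to 2097, and members called ranged over 0 to 2 with DAXX, 0 to 1 with wild-type H3.3 and 0 to 2 between the KO lines.

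Directions turned only in differences that had not passed or carry no test. *Lin28b* with the mutant against KO was -0.0071 at a mean of at least 5 CPM, and *Igf2bp3* between the KO lines was -0.003 with the block and -0.0014 alone. The correlation with *Hmga2* turned for *Hmga1* by Spearman (0.32) and for *Igf2bp1* over the 6 H3.3 libraries (0.51), by Spearman (0.0545) and with TMM factors (0.0042). Leaving out 1 library turned these ranges across 0. With DAXX they were -0.30 to 0.0081 for *Hmga1*, -0.31 to 0.13 for *Hmga2*, -0.33 to 1.21 for *Lin28b* and -0.17 to 0.43 for *Igf2bp3*. With wild-type H3.3 *Lin28a* ran from -0.0652 to 1.37. With the mutant against KO they were -0.42 to 0.33 for *Hmga2*, -0.10 to 0.15 for *Lin28b*, -0.35 to 0.11 for *Igf2bp1* and -0.19 to 0.17 for *Igf2bp3*. With the mutant against wild-type they were -0.0673 to 0.38 for *Hmga1* and -0.11 to 0.36 for *Igf2bp1*. Between the KO lines they were -0.55 to 0.19 for *Hmga2*, -0.42 to 1.12 for *Lin28b* and -0.26 to 0.33 for *Igf2bp3*. The correlations ran from -0.22 to 0.22 for *Hmga1* and from -0.057 to 0.20 for *Igf2bp1*.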
